A study of Mus musculus with 2 samples.

Results

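Cyclins and the kinases they activate were examined after depletion of H2A.B, a short form of histone H2A, from mouse embryonic stem (ES) cells. The genes are the D-type cyclins Ccnd1, Ccnd2 and Ccnd3, the E-type cyclins Ccne1 and Ccne2, the A-type cyclin Ccna2, the B-type cyclins Ccnb1 and Ccnb2, and the kinases Cdk2 and Cdk1. They were chosen by name, and every probe set whose platform gene symbol was exactly one of these names was used. Of the 10 genes, 9 were named by a total of 18 probe sets, among 16563 genes with a value in all. Ccnb1 had 0 probe sets naming it alone, and probe sets naming several genes were not used, so its level was not analysed here.

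The H2A.B KD cells were infected with a retrovirus carrying a short-hairpin RNA against H2A.B, and the control KD cells with a retrovirus carrying a control sequence. In both, the hairpin was driven by the U6 promoter of a pMSCV-neo vector, and the cells were kept in G418, which selects for the vector, for 2 to 4 weeks. Both were grown without feeder cells on gelatin in serum and leukaemia inhibitory factor, and 2 µg of total RNA per sample was labelled for hybridisation to Affymetrix arrays. Each group had a single array (1 H2A.B KD, 1 control KD), so the differences carry neither replicate errors nor tests and describe only this pair of arrays.

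Progress through the cell cycle is driven by cyclin-dependent kinases, which are active only when bound to a cyclin. D-type cyclins bind Cdk4 and Cdk6 and begin the phosphorylation of the retinoblastoma protein, E-type cyclins with Cdk2 take cells into S phase, Ccna2 works with Cdk2 and then Cdk1, and B-type cyclins with Cdk1 drive mitosis. Mouse ES cells are known for a short G1 phase and for Cdk2 activity that varies little over the cycle. The arrays read messenger RNA, whereas cyclin proteins are also set by timed destruction. In bulk RNA, fewer cells in a phase and less RNA per cell cannot be told apart.

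Promoter windows of 3 of these genes are shown from RefSeq (GRCm38.p6), each running from 250 bases before the transcript start through the first 50 bases after it. They were picked after the values were seen: Ccne1 had the largest difference of the 9 genes, and Cdk1 and Ccnb2, which form a mitotic kinase pair, had differences close to each other. Such closeness was not particular to that pair, since Ccna2 and Cdk2 lay closer to each other. Capitals mark the motifs CCAAT (the NF-Y box), TTTGAA (the cell-cycle homology element read by the MuvB complexes), GGGCGG (the Sp1 box) and TTTCCCGC (an E2F site), searched on both strands with no overlap between matches.
Ccne1 promoter, chr7:38107441-38107740, minus strand: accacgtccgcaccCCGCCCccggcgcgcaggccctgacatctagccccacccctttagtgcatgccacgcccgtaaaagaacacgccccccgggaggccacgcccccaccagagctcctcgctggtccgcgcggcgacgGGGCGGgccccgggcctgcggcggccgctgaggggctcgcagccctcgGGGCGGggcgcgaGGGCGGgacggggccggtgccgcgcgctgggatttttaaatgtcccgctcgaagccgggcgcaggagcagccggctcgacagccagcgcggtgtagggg
Ccnb2 promoter, chr9:70421505-70421804, minus strand: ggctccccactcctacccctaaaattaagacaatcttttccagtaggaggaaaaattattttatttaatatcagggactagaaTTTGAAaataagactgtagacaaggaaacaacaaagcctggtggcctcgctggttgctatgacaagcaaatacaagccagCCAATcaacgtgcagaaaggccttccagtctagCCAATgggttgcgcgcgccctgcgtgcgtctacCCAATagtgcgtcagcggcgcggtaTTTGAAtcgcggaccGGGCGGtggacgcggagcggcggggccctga
Cdk1 promoter, chr10:69352863-69353162, minus strand: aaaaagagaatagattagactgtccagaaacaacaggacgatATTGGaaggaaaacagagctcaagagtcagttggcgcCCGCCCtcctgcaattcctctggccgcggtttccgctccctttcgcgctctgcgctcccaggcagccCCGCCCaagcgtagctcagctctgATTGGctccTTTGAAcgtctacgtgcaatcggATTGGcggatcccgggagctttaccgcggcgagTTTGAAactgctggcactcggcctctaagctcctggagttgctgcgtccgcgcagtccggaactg

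The Ccnb2 window held CCAAT 3 times, starting 87, 54 and 21 bases before the transcript start, and TTTGAA 2 times, 167 bases before it and at base 5 of the transcript. The Cdk1 window held CCAAT 3 times on the opposite strand, 208, 80 and 48 bases before the start, and TTTGAA 71 and 15 bases before it. The Ccne1 window had 0 matches to CCAAT or TTTGAA and 4 to GGGCGG. TTTCCCGC, the only spelling of an E2F site that was searched, had 0 matches in these 3 windows and 1 in that of Cdk2. Windows existed for 6 of the 10 genes, Ccnd3 having 2. Among all 32851 windows, CCAAT was present in 37.4%, TTTGAA in 17.9%, GGGCGG in 35.7% and TTTCCCGC in 1.07%. A match is a description of these letters and not a binding site.

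The values are log2 intensities, and a difference is H2A.B KD minus control KD, so that 1 is a 2-fold difference. Each gene was read from its brightest usable probe set, judged by the mean of both arrays, and passed the expression filter when that mean was at least 6.73, the median over genes. Of the 8282 genes past the filter, 0.676% were at least 2-fold higher and 1.28% at least 2-fold lower on the H2A.B KD array. Differences were not equally wide along the deposited table: their median absolute size was 0.04 over the 4920 genes past the filter read from its first 18184 probe sets (the first section). It was 0.187 over the 1695 such genes of the next 15458 probe sets (the middle section, which holds all repeated control values) and 0.193 over the 1667 of the final 11476 (the last section). The cause of that spread was not tested. Of the ES cell markers, 9 of 9 with a value passed the filter, as did 4 of 8 fibroblast or feeder markers (Thy1 only through its H2A.B KD value) and 1 of 11 markers of differentiated lineages, Pax6. Pou5f1 had 12.64 on the H2A.B KD array and 12.65 on the control KD array. The ES cell markers furthest from 0 were Esrrb at 0.33, Klf4 at 0.16 and Nanog at -0.09. Pax6 had 8.88 on the H2A.B KD array and 9.66 on the control KD array, a difference of -0.78, with 0, -0.03 and 0.03 on its dimmer probe sets. The genes of H2A.B itself, H2ab1, H2ab2 and H2ab3, each had 0 probe sets naming that gene alone. Probe sets naming several genes were not searched for them, so the depletion was not read from these arrays.

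The cyclins and their kinases were at close to the same level on both arrays. All 9 genes with a probe set passed the filter, and 0 of the 9 differed by 2-fold, where 1.96% of all genes past the filter did in either direction. At a 1.5-fold limit the count was also 0, where 5.64% of all genes were past it. With only 9 genes, a count of 0 does not set them apart from either share. Over all 18 probe sets the differences ran from -0.11 to 0.20 on the log2 scale, or from 0.925-fold to 1.15-fold. By gene, 8 of 9 differences lay above 0 and 6 of 9 did so after lowess centring, beside 49.3% of all genes past the filter. The median of the 9 differences was 0.04, and that of all genes -0.0016. The only spread available is technical. Among probe sets of the same gene that themselves passed the filter level, the SD of the difference had a median of 0.05 over 2556 genes. Probe sets below that level were left out of it. Of the 9 absolute differences, 4 were smaller than that median.

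**Figure D1:**
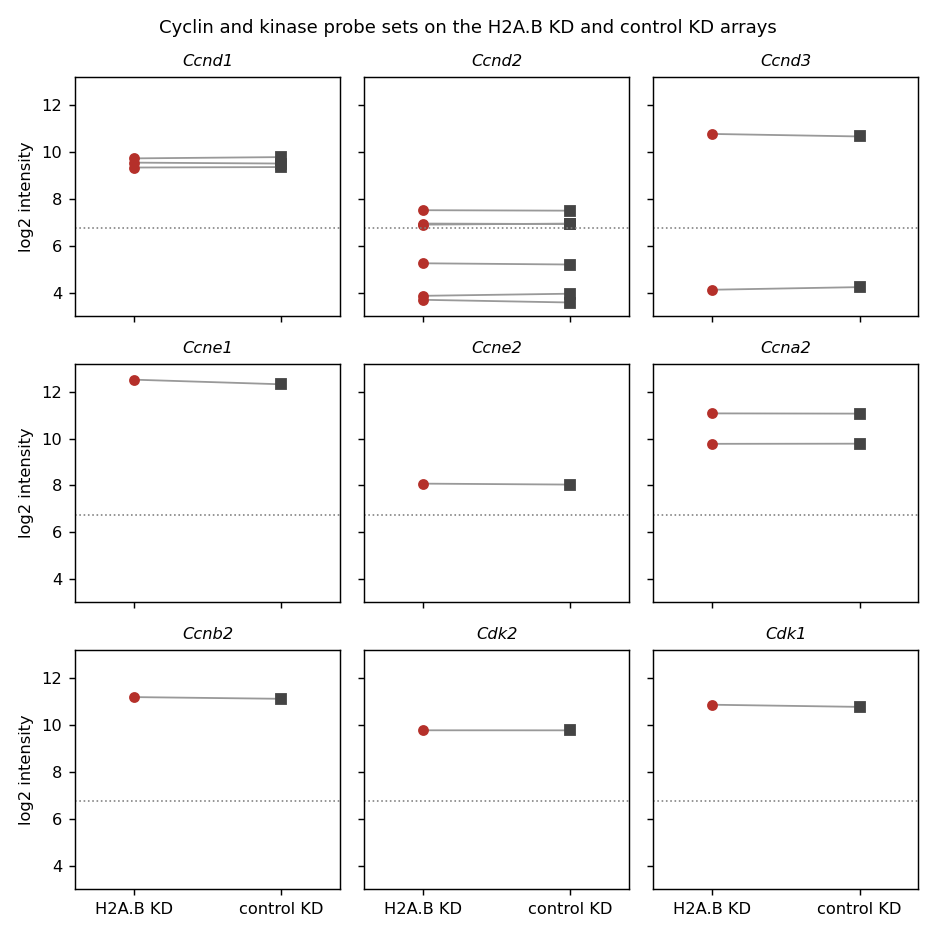
Log2 intensity (y axis) of every probe set of the 9 genes on the H2A.B KD array (red circles) and the control KD array (grey squares), 1 array per group, with a line joining the values of each probe set and a dotted line at the expression filter of 6.73. The lines are close to flat, and the 4 probe sets below the filter belong to Ccnd2 and Ccnd3.

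Among the D-type cyclins, which couple growth signals to the cycle, Ccnd1 was measured by 3 probe sets. Its brightest had 9.73 on the H2A.B KD array and 9.78 on the control KD array, a difference of -0.06, and it was the only gene of the 9 below 0, joined by Ccna2 and Cdk2 after lowess centring. The other probe sets of Ccnd1 differed by 0.04 and -0.02, so its probe sets did not share a sign. The median of the 3 differences was -0.02 and their SD 0.05.

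Ccnd2 had the most probe sets, 6, of which 3 passed the filter level. The brightest had 7.52 on the H2A.B KD array and 7.50 on the control KD array, a difference of 0.02, and the next in brightness differed by 0.02 and -0.04. The remaining 3, below the filter, differed by 0.05, -0.09 and 0.12. The spread of the Ccnd2 differences was thus wider with the dim probe sets (SD 0.07 over 6) than among those past the filter (SD 0.04 over 3). In every probe set the gap between the arrays stayed below 0.2.

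Ccnd3 had 10.77 on the H2A.B KD array and 10.67 on the control KD array on its brighter probe set, a difference of 0.11 (1.08-fold). Its dim probe set, with 4.12 on the H2A.B KD array and 4.23 on the control KD array, differed by -0.11. The probe sets therefore disagreed in sign, with an SD of 0.16, and a median of -0.0020.

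E-type cyclins are the partners of Cdk2 at the start of S phase. Ccne1 had 12.51 on the H2A.B KD array and 12.32 on the control KD array. This difference of 0.20, or 1.15-fold, was the largest of the 9 genes, and it rests on a single probe set. Among all genes past the filter 23.9% had a larger absolute difference, and among those read from the first section of the table, as Ccne1 was, 7.28% did. Ccne2, the closely related E-type cyclin, had 8.07 on the H2A.B KD array and 8.03 on the control KD array, a difference of 0.04. In the first section 53.5% of genes had an absolute difference larger than that of Ccne2.

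Ccna2, the cyclin of S phase and early mitosis, was measured by 2 probe sets that both lay far above the filter. One had 11.07 on the H2A.B KD array and 11.06 on the control KD array, and the other 9.77 on the H2A.B KD array and 9.78 on the control KD array. The differences of 0.01 and -0.01 had opposite signs, and that of the first turned to -0.0024 after lowess centring. Both Ccna2 probe sets lie among the rows that hold the step series of the H2A.B KD column, and 0 of their values belong to it.

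Ccnb2, a B-type cyclin of mitosis whose promoter is printed above, had 11.19 on the H2A.B KD array and 11.12 on the control KD array, a difference of 0.07 on its only probe set. It was read from the last section of the table, where 81.3% of genes had a larger absolute difference. Cdk1, its kinase, had 10.87 on the H2A.B KD array and 10.78 on the control KD array, a difference of 0.09. It too has a single probe set, read from the middle section, where 75.2% of genes had a larger absolute difference. Among all genes past the filter these shares were 50.1% for Ccnb2 and 43.4% for Cdk1. The like size of this mitotic pair was noticed after the values were seen. It is not particular to the pair, since Ccna2 at 0.01 and Cdk2 at 0.0021 lay closer to each other.

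Cdk2, the kinase of E- and A-type cyclins, had 9.776 on the H2A.B KD array and 9.773 on the control KD array. Its difference of 0.0021 was the smallest of the 9 genes, and after lowess centring it was -0.0037. Of all genes past the filter, 98.1% had a larger absolute difference than Cdk2.

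**Figure D2:**
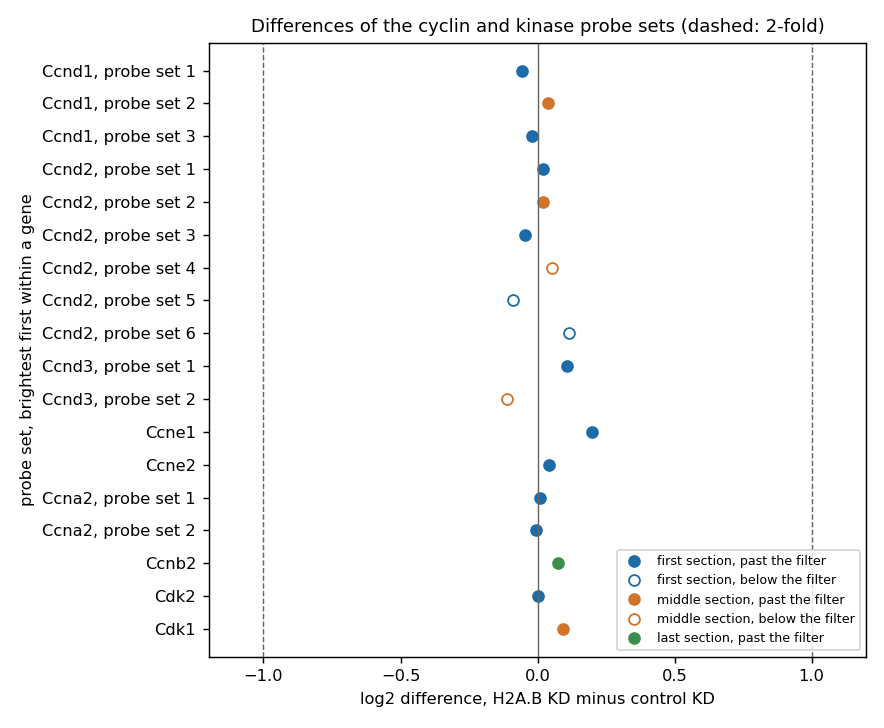
Log2 difference, H2A.B KD minus control KD, of each of the 18 probe sets (x axis), listed by gene with the brightest probe set first (y axis), coloured by section of the deposited table, with open circles for probe sets below the expression filter and dashed lines at 2-fold. The points run from -0.11 to 0.20, the highest being Ccne1, and 12 of the 18 lie above 0.

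By position in the table, the first section holds 12 of the 18 probe sets, the middle section 5 and the last section 1. The 4 probe sets below the filter differed by 0.05 to 0.12 in absolute size. All 5 genes with a single probe set had a difference above 0, but for Cdk2 this ended after lowess centring, and no second probe set was at hand to set beside theirs. In the plot of all genes by level, the 9 genes lie inside the dense band around 0.

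**Figure D3:**
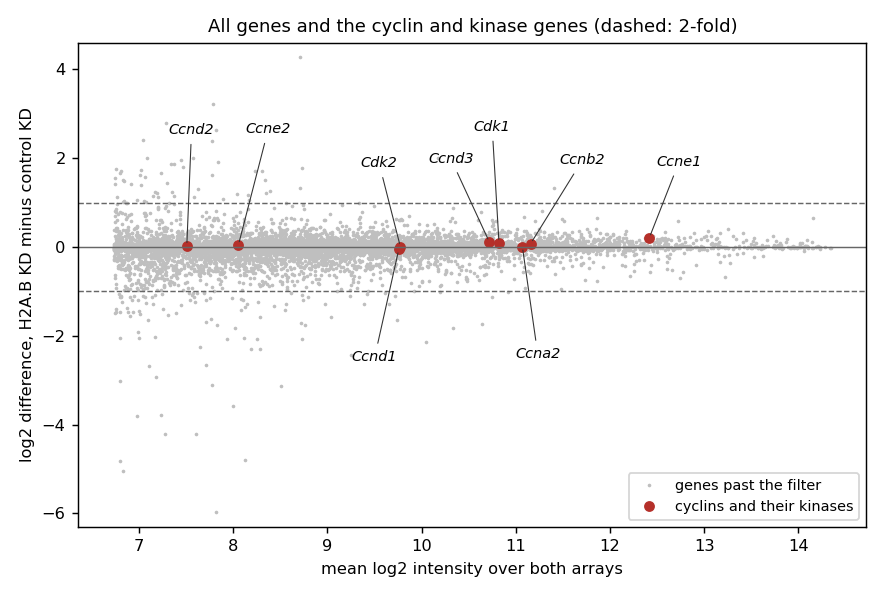
Mean log2 intensity over both arrays (x axis) against log2 difference, H2A.B KD minus control KD (y axis), for the 8282 genes past the expression filter (grey) and the 9 cyclin and kinase genes (red, named), with dashed lines at 2-fold. The red points lie between -0.06 and 0.20, while 56 grey points lie at or above the upper dashed line and 106 at or below the lower.

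The genes that surround these cyclins in the pathway were taken from 8 lists. Together they held 110 genes past the filter, of which 0 differed by 2-fold and 2 by 1.5-fold. Above 0 lay 63 of them and below 0 lay 47, with a median of 0.02. Among all genes past the filter 49.3% lay above 0, and among those of the first section 52.2%. These shares also stand beside the counts above 0 given below for each list. The 63 genes include Cdkn2b, which passed the filter only through the H2A.B KD array. The 1.5-fold share of 1.82% stands beside 5.64% of all genes past the filter, but genes of like level were not picked out for it. Such shares depend on level: with the filter at the 75th percentile, 3 of 4141 genes were 2-fold higher and 17 lower. The lists were not tested against other genes.

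Other cyclins had 12 members past the filter. Of these 5 lay above 0 and 7 below it, with a median of -0.02 that turned to between 0.0060 and 0.027 under 4 alternatives: the median over probe sets, no suffixed probe sets, the filter at the 75th percentile and the first section alone. Those furthest from 0 were Ccnk, the partner of Cdk12 and Cdk13, at 0.18, Ccng1, a p53 target, at 0.17, and Ccnt1, the cyclin of transcription elongation, at 0.13. Ccng1 had 11.95 on the H2A.B KD array and 11.78 on the control KD array, and its other probe sets differed by 0.26 and 0.31, so that all 3 lay above 0. Ccnt1 differed by -0.02 on its other probe set.

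Other cyclin-dependent kinases counted 12 genes past the filter, with a median of 0.02, and 7 of them lay above 0. Cdk12, which phosphorylates RNA polymerase II, was the furthest, with 9.08 on the H2A.B KD array and 8.16 on the control KD array, a difference of 0.93. Its other probe set past the filter differed by -0.34, and those below it by -0.36 and 0.11, so the sign changed with the probe set. Cdk17 differed by 0.51 on its only probe set and Cdk19, a Mediator kinase, by 0.29 and by -0.03 on its other probe set. These 3 are not kinases of the D-type cyclins. Of those that are, Cdk6 differed by -0.27, read from the middle section. Its other probe sets differed by -0.17 and, below the filter, -0.13, so that all lay below 0. Cdk4 differed by 0.02, with 0.05 and 0.04 on its other probe sets.

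The kinase inhibitors counted 4 genes past the filter, and 1 of them passed only through the H2A.B KD array, so their count above 0 and their median are not read. That gene was Cdkn2b, which encodes the Cdk4 and Cdk6 inhibitor p15, with 7.07 on the H2A.B KD array and 6.69 on the control KD array, a difference of 0.38. Cdkn1a, which encodes p21, differed by 0.12 and by -0.10 on its other probe set, and Cdkn2d, an inhibitor of the same family as Cdkn2b, by -0.05. Regulators of Cdk1 and Cdk2 numbered 11 past the filter, of which 7 lay above 0, with a median of 0.01 that turned to -0.0015 after lowess centring and to -0.0029 with the median over probe sets. The checkpoint kinase gene Chek1 (-0.11), Mnat1 of the Cdk-activating kinase (-0.11) and the activating phosphatase gene Cdc25b (0.10) were the furthest from 0. The other probe sets of Chek1 differed by -0.22 and, below the filter, -0.19, so that all 3 differences lay below 0.

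Rb, E2f and DREAM genes, the transcription factors through which these kinases act, numbered 16 past the filter, of which 12 lay above 0 (median 0.05). Tfdp2, a dimerisation partner of E2f proteins, had 7.90 on the H2A.B KD array and 8.74 on the control KD array, a difference of -0.84, while its other probe sets differed by 0.0040 and 0.04. E2f6, a repressor, differed by 0.38 and by -0.42 on its other probe set, which lay below the filter. E2f7, also a repressor, differed by 0.20 on its only probe set. These 3 values were all read from the middle section, and those of Tfdp2 and E2f6 were not repeated on other probe sets.

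Cyclin ubiquitin ligase genes, which direct the destruction of cyclins, numbered 20 past the filter, of which 11 lay above 0 (median 0.01). Ambra1, an adaptor for the destruction of D-type cyclins, differed by -0.30. Its other probe sets, both below the filter, differed by 0.19 and -0.33. Cdc20, an activator of the anaphase-promoting complex, had 7.61 on the H2A.B KD array and 7.32 on the control KD array, a difference of 0.28, and Cdc27, a subunit of that complex, differed by -0.17. None of the 9 cyclin and kinase genes differed by as much as Cdc20.

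Downstream of the cyclins, S phase genes numbered 16 past the filter, of which 8 lay above 0, with a median of 0.0049 that turned to -0.011 after lowess centring and to -0.015 without both members of repeated pairs. Slbp, which binds histone messenger RNA, differed by -0.37 (0.13 and, below the filter, 0.09 on its other probe sets). The replicative helicase gene Mcm2 differed by 0.25 and its partner Mcm5 by 0.15, with -0.03 on the other probe set of Mcm5. Mitosis genes numbered 19 past the filter, of which 10 lay above 0 (median 0.02). Incenp of the chromosomal passenger complex differed by -0.53, with 0.15 and 0.07 on its other probe sets. Cdca8 of the same complex differed by -0.21, with -0.54 on its other probe set. The kinesin gene Cenpe differed by 0.21, with -0.22 on its other probe set, which lay below the filter.

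**Figure D4:**
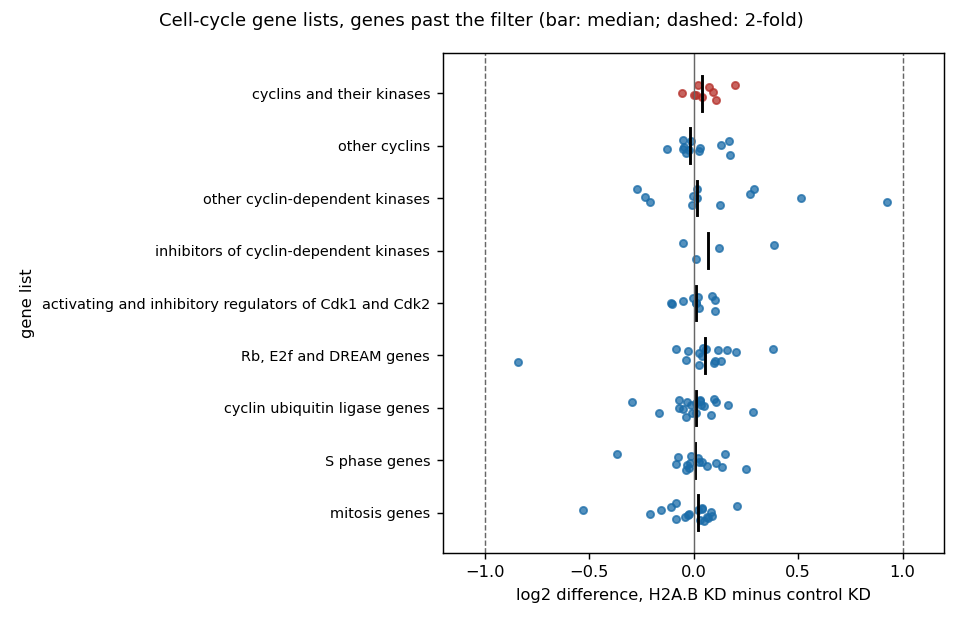
Log2 difference, H2A.B KD minus control KD (x axis), of each gene past the expression filter in the cyclin and kinase set (red) and the 8 surrounding cell-cycle lists (blue), with a black bar at each median and dashed lines at 2-fold. Every plotted gene lies inside the 2-fold lines, and Cdk12 at 0.93 and Tfdp2 at -0.84 lie furthest out. The median of the kinase inhibitors is not read, since Cdkn2b passed the filter only through the H2A.B KD array.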

How the data were processed

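The authors processed the arrays with RMA, according to the submitters' processing notes (version not given in the sources used here). The control KD column was read as log2 intensities, since the deposited table states no scale and that column runs from 0.801 to 14.5. The deposited H2A.B KD column is classed as a score, since 618 values are not log2 intensities: 616 form a series rising by 1 (rows 2054 to 4710) and 2 exceed 20. These, and 1455 control values repeating a value at most 20 rows above (rows 18185 to 33642), were left out, of which 0 touched a cyclin or kinase probe set. H2A.B KD values were not searched for repeats.

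Of 45118 probe sets, 28898 named 1 gene, 551 several and 15669 none. Genes were matched by symbol, updated for the lists through the gene IDs of the GRCm38.p6 table, which held those of 28689 single-gene probe sets. The named genes are the 10 chosen genes and, per list, the 3 past the filter with the largest absolute difference, plus those past 2-fold, of which there were 0. Cdk4 and Cdk6 were added as the kinases of the D-type cyclins. The ES cell markers Pou5f1, Nanog and Sox2 and the cell type markers were also to be named; most are given as counts. Members and lists were chosen with earlier results of these data known. With 1 array per group no test was run. Precision is limited by there being 1 array per group. Computation used Python 3.11.15, pandas 2.3.3 and statsmodels 0.14.6; the search and the fold rule were tested on simulated data.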

Additional observations from a re-analysis of the deposited data

How the results depend on the processing

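The cyclin and kinase results were recomputed under 10 alternatives, of which the first section alone and leaving out both members of repeated pairs were chosen after seeing the data. The count past the fold rule was 0 under every one of them, and the largest absolute difference of these genes ran from 0.18 to 0.21. Of 87 single-gene values, 85 moved by less than 0.05, the median SD among probe sets past the filter level. The exceptions came with the median over probe sets, taken on each array before subtracting, which gave Ccnd1 0.04 and Ccnd3 -0.0020; the median of the 3 Ccnd1 differences themselves was -0.02. Genes past the fold rule, 56 higher and 106 lower, numbered 187 and 482 with no expression filter, 3 and 17 when the filter stood at the 75th percentile, 149 and 318 at 1.5-fold, and 3 and 31 in the first section alone. The higher count was 90 with the median over probe sets and 87 without suffixed probe sets (names ending in s, x or a). The median of the kinase inhibitors is not read, since Cdkn2b passed the filter only through the H2A.B KD array. Its value of 0.07 was 0.0119 with the median over probe sets. It was 0.0128 without suffixed probe sets, with repeated control values kept, with both members of repeated pairs left out and in the first section alone. The median of the fibroblast and feeder markers, 0.07, was 0.159 with the median over probe sets. It is not read either, since Thy1 passed the filter only through its H2A.B KD value. The cause was not tested beyond what each alternative leaves out. No paired analysis was possible because each group has 1 array, and leaving out a replicate was not possible for the same reason. Signal over background was not analysed.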

Other observations

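Among the mitosis and cyclin ubiquitin ligase genes, 2 were noticed after their values were seen because a dim probe set stood far from the brightest. Top2a, the topoisomerase that resolves sister chromatids, had 12.10 on the H2A.B KD array and 12.21 on the control KD array on its brightest probe set, a difference of -0.11. Its other probe sets, with mean levels of 6.24 and 5.20, differed by 1.63 and -0.15. Cdc27 differed by -0.17 on its brightest probe set and by 0.21, 0.16 and -0.94 on the others, whose mean levels were 6.49, 5.03 and 4.64. The cause of these gaps was not tested.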
